A study of Mus musculus with 12 samples.

Results

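The 10 genes described here, which YAP and TEAD are known to activate, were followed in the testis cell lines TM4 and TM3 with and without the phthalate metabolite MEHP. They are Ctgf, Cyr61, Ankrd1, Amotl1, Amotl2, Crim1, Foxf2, Axl, Lats2 and Ajuba, taken by gene name from a table of 55004 genes, and all 10 passed the filter on low counts that left 15700 genes for testing. TM4 is a mouse Sertoli cell line and TM3 a mouse Leydig cell line. Sertoli cells nurse the germ cells, and Leydig cells make testosterone. The 4 groups were TM4 with MEHP, TM4 with DMSO, TM3 with MEHP and TM3 with DMSO, with 3 libraries each. MEHP, the monoester made in the body from the plasticizer DEHP, was given at 100 uM, and the controls received the solvent DMSO at 0.1%, in both cases for 72 h. The labels do not say whether replicates came from separate cultures, so the p-values reflect only how these libraries spread, which may be technical.

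YAP and its relative TAZ (gene Wwtr1) are coactivators that have no DNA-binding domain and work through the TEAD transcription factors. The Hippo kinases, with LATS1 and LATS2 as the last step, phosphorylate YAP and TAZ and keep them out of the nucleus, while spreading, stiffness and actin tension favour their nuclear form. Several targets act back on the pathway: LATS2 and the angiomotins restrain YAP, and AJUBA binds and inhibits LATS kinases. In the mouse testis, loss of Lats1 and Lats2 from somatic cells is known to disturb the identity of these cells.

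Library totals ran from 15771908 to 18203115 counts. Levels are given as CPM, that is counts relative to TMM-scaled library sizes. A count of 0 allows up to 0.165 to 0.190 CPM, with 3 counts as the limit, for counting error only. The lines did not carry all markers of their labelled cell types. The summed level of 9 Sertoli markers was 56.2 to 61.6 CPM in TM4 with MEHP and 57.7 to 60.6 CPM in TM4 with DMSO, against 201 to 204 CPM in TM3 with MEHP and 198 to 215 CPM in TM3 with DMSO. The higher sum in TM3 is mostly Wt1, which averaged 0.0776 CPM in TM4 with DMSO, against 167 CPM in TM3 with DMSO. Of the 6 tested, Sox9, Dhh and Gata4 were higher and Wt1 and Rhox5 lower in TM4 with DMSO than in TM3 with DMSO. At the same threshold 82.0% of all genes tested differed between these groups, 40.0% higher and 42.0% lower in TM4. Gata4 averaged 52.0 CPM in TM4 with DMSO and 35.3 CPM in TM3 with DMSO. Sox9 averaged 2.37 CPM and Dhh 3.48 CPM in TM4 with DMSO, against 0.362 CPM and 0.0392 CPM in TM3 with DMSO. Fshr and Dmrt1 had no count in any library. The 8 Leydig markers summed to 8.04 to 10.8 CPM in TM4 with MEHP and 8.72 to 10.6 CPM in TM4 with DMSO. In TM3 they summed to 10.1 to 11.9 CPM with MEHP and 8.67 to 10.6 CPM with DMSO. Under DMSO the Leydig line thus had no more of them than the Sertoli line. Most of the sum under DMSO was Star, at 7.81 CPM in TM4 and 6.59 CPM in TM3. Hsd3b1, Hsd3b6 and Lhcgr had no count in any library. Endothelial, leukocyte and germ cell lists of 5 genes each summed to at most 2.49, 4.35 and 2.95 CPM.

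Promoter sequences were matched for 9 of the 10 genes in RefSeq (build GRCm38.p6), and the 250 bases before the start were searched on both strands for GGAATG, the core that TEAD factors bind, for the AP-1 motif TGANTCA and for the CArG box of SRF. GGAATG was found in 6 of the 9 genes, namely Cyr61, Ankrd1, Amotl2, Crim1, Axl and Ajuba, and in 12.6% of 32851 promoters of the same length. That share counts single promoters and not genes, so the units differ. A gene can have more than 1 promoter, as Lats2 has 2, neither with a match. Neither TGANTCA, held by 6.75% of those promoters, nor the CArG box, held by 1.47%, was found in any of the 9. Of the 7 matched genes that fell in TM4 with MEHP, 6 held GGAATG. Of the 2 that did not pass there, Amotl1 and Foxf2, 0 did. Ctgf, the gene without a promoter entry, fell in TM4 as well. Among the genes that rose in TM3, Cyr61 and Crim1 held GGAATG, and Foxf2 and Amotl1 did not. A link between the motif and either response was not tested, and the genes are too few to judge one. The matches are letter matches in a fixed window and not sites shown to be bound. All 250 bases searched for Ankrd1, 136 of those for Amotl2 and 56 of those for Amotl1 lie in annotated UTRs of other transcripts (GENCODE, same build), and the matches of Ankrd1 and Amotl2 fall in those bases. The start used for Amotl2 lies 1132 bases, that for Amotl1 30056 bases and those for Lats2 12265 and 23970 bases inside the authors' gene model. The 250 bases before the start of Cyr61 (minus strand, chr3:145649986-145650235) and Crim1 (plus strand, chr17:78199998-78200247) are shown as 2 genes that fell in TM4 and rose in TM3, and those of Foxf2 (plus strand, chr13:31625566-31625815) as a gene that rose in TM3 without a match. Capitals mark GGAATG or its reverse complement CATTCC.
Cyr61: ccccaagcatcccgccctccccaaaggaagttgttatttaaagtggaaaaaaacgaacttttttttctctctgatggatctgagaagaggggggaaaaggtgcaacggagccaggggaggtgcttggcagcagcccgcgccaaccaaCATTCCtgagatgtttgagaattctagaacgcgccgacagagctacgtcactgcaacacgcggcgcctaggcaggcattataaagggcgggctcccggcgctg
Crim1: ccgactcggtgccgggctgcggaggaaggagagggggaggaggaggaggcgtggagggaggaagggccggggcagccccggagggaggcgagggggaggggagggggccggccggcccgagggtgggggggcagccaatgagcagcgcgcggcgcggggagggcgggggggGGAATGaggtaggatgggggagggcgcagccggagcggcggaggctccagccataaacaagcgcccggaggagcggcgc
Foxf2: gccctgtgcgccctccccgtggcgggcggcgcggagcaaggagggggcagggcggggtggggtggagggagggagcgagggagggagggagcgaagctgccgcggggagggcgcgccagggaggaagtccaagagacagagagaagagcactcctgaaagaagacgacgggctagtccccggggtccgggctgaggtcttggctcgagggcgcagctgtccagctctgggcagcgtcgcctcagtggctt

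The matches in the 4 other genes are shown as 30 bases around each core, with the same capitals, so that their flanks can be compared. They lay 210 and 123 bases before the start in Ankrd1 (first base of each match), 65 in Amotl2, 233 in Axl, and 186 and 164 in Ajuba, against 103 in Cyr61 and 79 in Crim1. The positions are chr19:36120037-36120066 and chr19:36119950-36119979 for Ankrd1, chr9:102717727-102717756 for Amotl2, chr7:25788949-25788978 for Axl, and chr14:54577830-54577859 and chr14:54577808-54577837 for Ajuba. Amotl2 is read on the plus strand and the others on the minus strand.
Ankrd1, first: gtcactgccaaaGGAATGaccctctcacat
Ankrd1, second: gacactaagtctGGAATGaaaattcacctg
Amotl2: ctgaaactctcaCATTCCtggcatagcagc
Axl: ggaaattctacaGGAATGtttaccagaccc
Ajuba, first: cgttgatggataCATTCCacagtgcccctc
Ajuba, second: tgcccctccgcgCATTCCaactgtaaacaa

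In TM4, 8 of the 10 target genes fell with MEHP and 0 rose. In TM3, 4 rose and 0 fell. The 10 genes were chosen with earlier results of these data known. The shares over all genes given beside them are therefore a description and not a test. Calls were made with edgeR's quasi-likelihood test at a Benjamini-Hochberg adjusted p under 0.05 over all 15700 genes, in which 15.0% of genes were lower and 15.9% higher in TM4 with MEHP, and 9.04% higher and 7.43% lower in TM3 with MEHP. The median log2 fold change of the 10 genes was -0.47 in TM4 and 0.15 in TM3, beside 0.003 and 0.005 over all genes. The counts of 0 were also 0 at an unadjusted p under 0.05 and by DESeq2 and limma-voom. In each of the 12 calls the MEHP and DMSO libraries were fully separated, while 18.8% of all genes had no overlap and were lower in TM4, and 18.1% had no overlap and were higher in TM3. The difference of the responses, TM4 minus TM3, was below 0 in all 10 genes and passed the test in 8, with a median of -0.68 beside 0.007 over all genes. In that comparison 13.3% of all genes passed in the lower direction. In bulk RNA, fewer cells that express a gene and less of its RNA per cell cannot be told apart.

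**Figure D1:**
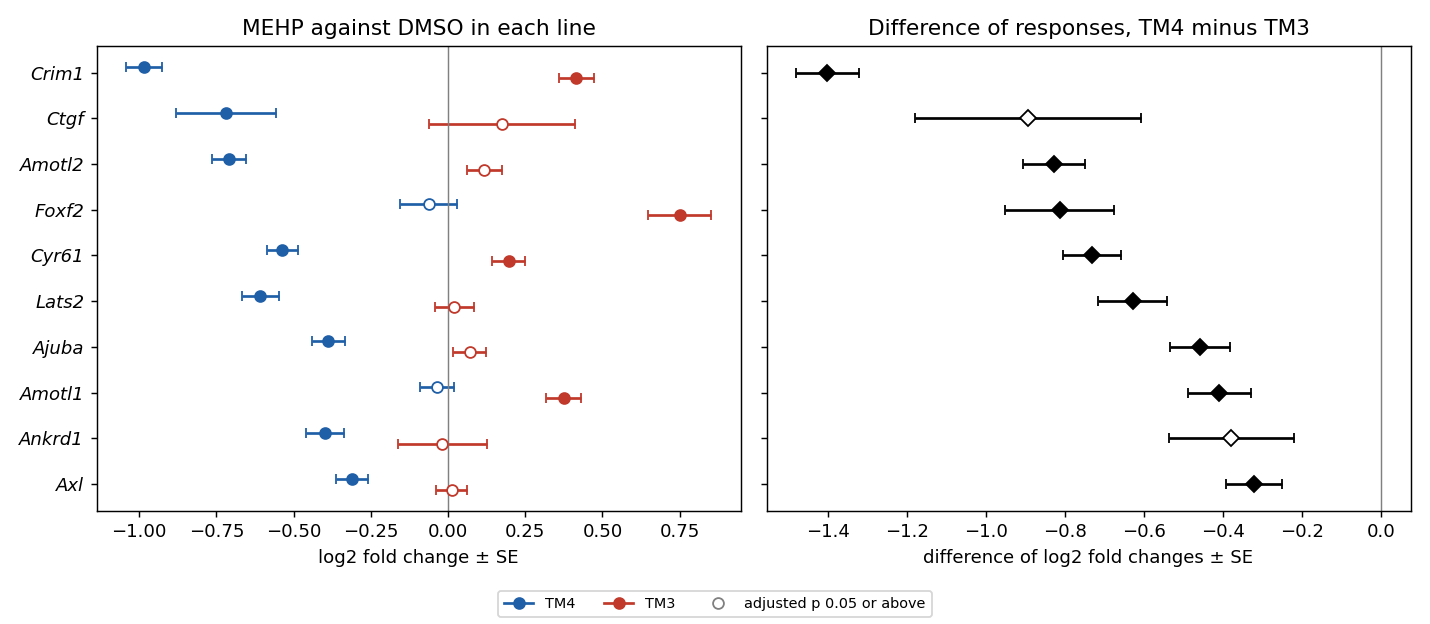
Left, log2 fold change of MEHP against DMSO ± SE for the 10 target genes in TM4 (blue) and TM3 (red). Right, the difference of the responses, TM4 minus TM3, ± SE, with open symbols where the adjusted p was 0.05 or above. The 8 genes that fell in TM4 lie between -0.98 and -0.31, and Foxf2 has the highest value in TM3, at 0.75.

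Ctgf and Cyr61 encode secreted matricellular proteins of the CCN family and are the most used readouts of YAP activity. Cyr61 had 1291, 1336 and 1267 CPM in TM4 with MEHP, against 1925, 1827 and 1895 CPM in TM4 with DMSO. All MEHP libraries lay below all DMSO libraries, and the log2 fold change was -0.54 ± 0.05 (SE, edgeR adjusted p = 2.51e-09). In TM3 the order was the other way round, with 324, 342 and 313 CPM with MEHP, against 299, 288 and 268 CPM with DMSO. The groups did not overlap, and Cyr61 rose by 0.20 ± 0.05 on the log2 scale (edgeR adjusted p = 0.00856). That rise did not pass without TM3 DMSO replicate 3 (edgeR adjusted p = 0.0992) or without TM3 MEHP replicate 2 (0.0833), within 0.0013 to 0.0992 over all alternatives. The difference of the responses was -0.73 ± 0.07 (edgeR adjusted p = 1.03e-08).

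Ctgf had 212, 290.4 and 244 CPM in TM4 with MEHP, against 380.0, 425 and 424 CPM in TM4 with DMSO. Each MEHP library was below each DMSO library, and Ctgf fell by 0.72 ± 0.16 on the log2 scale (edgeR adjusted p = 0.00976). In TM3, Ctgf had 18.4, 20.5 and 16.2 CPM with MEHP, against 22.2, 13.7 and 13.0 CPM with DMSO. DMSO replicate 1 was the highest of those 6 libraries, the groups overlapped, and the log2 fold change of 0.17 ± 0.24 did not pass (edgeR adjusted p = 0.703). With this spread the difference of the responses, -0.89 ± 0.29, missed the threshold (edgeR adjusted p = 0.0515). It passed without TM3 DMSO replicate 1, at -1.18 (edgeR adjusted p = 0.00123), and without TM4 MEHP replicate 2, at -1.02 (0.031), within 0.00123 to 0.128 over all alternatives.

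Ankrd1 encodes a nuclear ankyrin-repeat protein of muscle and stressed cells, and Foxf2 a forkhead transcription factor of mesenchyme. Ankrd1 had 82.6, 91.7 and 90.1 CPM in TM4 with MEHP, against 112, 119 and 117 CPM in TM4 with DMSO. It fell by 0.40 ± 0.06 on the log2 scale with no overlap (edgeR adjusted p = 1.2e-05). In TM3 its counts were low, with 3.28, 3.35 and 4.06 CPM with MEHP, against 3.15, 3.75 and 3.93 CPM with DMSO. Those groups overlapped, and the log2 fold change was -0.02 with a 95% interval of -0.31 to 0.28 (edgeR adjusted p = 0.969). The difference of the responses, -0.38 ± 0.16, did not pass (edgeR adjusted p = 0.0761).

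Foxf2 passed the test in TM3 and not in TM4. It had 21.1, 18.5 and 20.3 CPM in TM3 with MEHP, against 11.3, 11.8 and 12.5 CPM in TM3 with DMSO. Foxf2 rose 1.68-fold without overlap (log2 0.75 ± 0.10, edgeR adjusted p = 3e-06), and 96.2% of the genes tested had a lower log2 fold change in TM3. In TM4 it had 21.8, 24.6 and 20.4 CPM with MEHP, against 21.8, 22.6 and 25.4 CPM with DMSO. These values overlapped, and the log2 fold change was -0.06 with a 95% interval of -0.25 to 0.13 (edgeR adjusted p = 0.667). The responses of the lines differed by -0.81 ± 0.14 (edgeR adjusted p = 5.06e-05).

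Amotl1 and Amotl2 encode angiomotin-like scaffolds of cell junctions that bind YAP. Amotl2 had 508, 471 and 468 CPM in TM4 with MEHP, against 799, 769 and 798 CPM in TM4 with DMSO. It fell by 0.71 ± 0.06 on the log2 scale without overlap (edgeR adjusted p = 3.31e-11). In TM3, Amotl2 had 405, 426 and 395 CPM with MEHP, against 398, 391 and 340.3 CPM with DMSO, which overlapped (log2 0.12 ± 0.06, edgeR adjusted p = 0.161). Amotl1 had 364, 316 and 317 CPM in TM4 with MEHP, against 359, 329 and 334 CPM in TM4 with DMSO. The groups overlapped there, and the log2 fold change was -0.04 with a 95% interval of -0.15 to 0.08 (edgeR adjusted p = 0.688). In TM3, Amotl1 had 235, 229 and 224 CPM with MEHP, against 175, 185 and 171 CPM with DMSO. All MEHP libraries were above all DMSO libraries, and Amotl1 rose by 0.37 ± 0.06 on the log2 scale (edgeR adjusted p = 1.39e-05). The responses of the lines differed by -0.83 ± 0.08 for Amotl2 and by -0.41 ± 0.08 for Amotl1 (edgeR adjusted p = 3.56e-09 and 0.000241).

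Lats2 encodes the kinase that inactivates YAP, and Ajuba a LIM-domain adaptor of junctions. Lats2 had 64.0, 72.4 and 69.5 CPM in TM4 with MEHP, against 102, 103 and 109 CPM in TM4 with DMSO. It fell by 0.61 ± 0.06 on the log2 scale without overlap (edgeR adjusted p = 3.66e-09). In TM3, Lats2 had 45.8, 48.7 and 46.6 CPM with MEHP, against 45.7, 47.3 and 46.1 CPM with DMSO. These values overlapped, with a 95% interval of -0.11 to 0.15 for the log2 fold change (edgeR adjusted p = 0.886). Ajuba had 151.0, 151 and 139 CPM in TM4 with MEHP, against 187, 198 and 191 CPM in TM4 with DMSO. It fell by 0.39 ± 0.05 on the log2 scale without overlap (edgeR adjusted p = 1.41e-06). In TM3, Ajuba had 126, 125 and 133 CPM with MEHP, against 119, 129 and 119 CPM with DMSO, and the groups overlapped (log2 0.07 ± 0.05, edgeR adjusted p = 0.426). The responses of the lines differed by -0.63 ± 0.09 for Lats2 and by -0.46 ± 0.08 for Ajuba (edgeR adjusted p = 2.76e-06 and 3.24e-05).

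Crim1 and Axl encode membrane proteins, Crim1 a cysteine-rich protein that binds BMP ligands and Axl a receptor tyrosine kinase for GAS6. Crim1 had 110, 115 and 97.3 CPM in TM4 with MEHP, against 219, 203 and 216 CPM in TM4 with DMSO. It fell to 0.505 times its DMSO level without overlap (log2 -0.98 ± 0.06, edgeR adjusted p = 3.42e-14), and 2.69% of the genes tested had a lower log2 fold change in TM4. In TM3, Crim1 had 321, 302 and 328 CPM with MEHP, against 233, 246 and 233 CPM with DMSO. It rose there by 0.42 ± 0.06 on the log2 scale without overlap (edgeR adjusted p = 2.26e-06). Crim1 and Cyr61 were the 2 genes of the 10 that passed in both lines, each with opposite signs. The difference for Crim1, -1.40 ± 0.08, was the lowest of the 10 (edgeR adjusted p = 4.32e-14). Axl had 385, 364 and 358 CPM in TM4 with MEHP, against 444, 439.8 and 488 CPM in TM4 with DMSO. It fell by 0.31 ± 0.05 on the log2 scale without overlap (edgeR adjusted p = 2.06e-05). In TM3, Axl had 472, 493 and 488 CPM with MEHP, against 476, 485 and 482 CPM with DMSO, and the 95% interval of the log2 fold change was -0.09 to 0.12 (edgeR adjusted p = 0.925). The responses of the lines differed for Axl by -0.32 ± 0.07 (edgeR adjusted p = 0.0011).

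**Figure D2:**
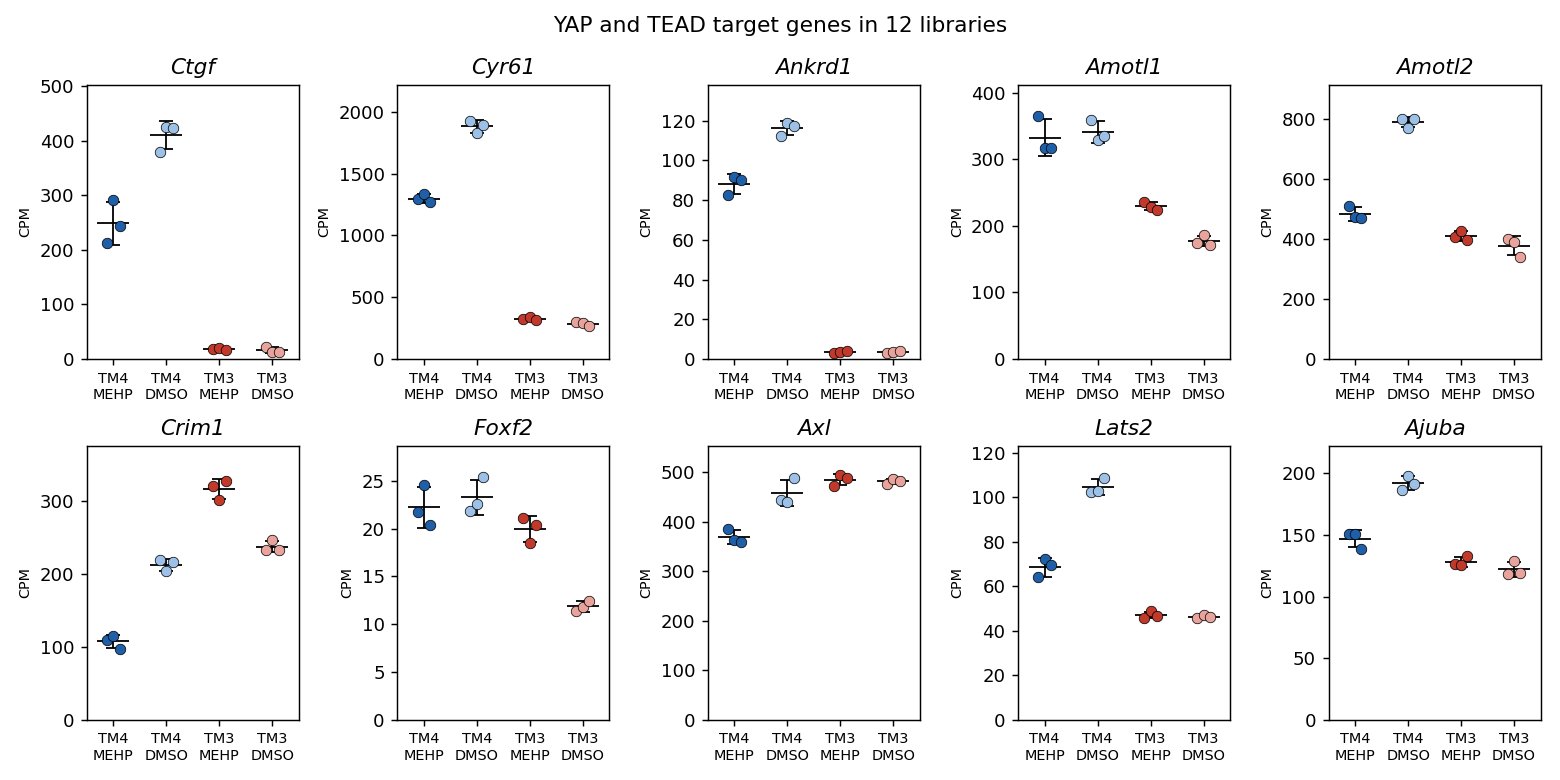
Level of each of the 10 target genes in CPM (linear axes from 0), by group. Points are the 3 libraries of a group, and bars show the mean ± SD. Crim1 averages 108 CPM in TM4 with MEHP and 213 CPM in TM4 with DMSO, and Foxf2 averages 20.0 CPM in TM3 with MEHP and 11.9 CPM in TM3 with DMSO.

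The unexposed lines differed in most of the 10 genes, as they did in most genes. In TM4 with DMSO against TM3 with DMSO, 8 were higher and 1 lower, while 82.0% of all genes passed, 40.0% higher and 42.0% lower in TM4. The median log2 fold change was 1.02, beside -0.01 over all genes. The largest values were those of Ankrd1, at 5.01 ± 0.09, and Ctgf, at 4.65 ± 0.21, and 97.5% and 97.2% of the genes tested had lower ones. Cyr61 followed at 2.72 ± 0.06, and Lats2, Amotl2, Foxf2, Amotl1 and Ajuba lay between 0.65 and 1.17. Crim1 was lower in TM4, at -0.16 ± 0.06 (edgeR adjusted p = 0.0109), and did not pass without TM4 DMSO replicate 2 (0.0714, within 0.00142 to 0.0714 over all alternatives). Axl, at -0.07 ± 0.05, did not pass (edgeR adjusted p = 0.187) but did without TM4 DMSO replicate 3 (0.0465, within 0.0435 to 0.497).

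Under MEHP the ratio of TM4 to TM3 was lower than under DMSO for each of the 10 genes, which restates the difference of the responses on the scale of the lines. For Ctgf the ratio of mean CPM was 13.5 with MEHP and 25.1 with DMSO. For Cyr61 it was 3.98 with MEHP and 6.61 with DMSO. For Amotl2 it was 1.18 with MEHP and 2.09 with DMSO. For Foxf2 it was 1.11 with MEHP, where the libraries of the lines overlapped, and 1.96 with DMSO. For Crim1 it was 0.339 with MEHP and 0.897 with DMSO. Together the 10 genes took 0.318% to 0.334% of the counts in TM4 with MEHP, against 0.431% to 0.448% in TM4 with DMSO. In TM3 their share was 0.194% to 0.200% with MEHP, against 0.169% to 0.179% with DMSO.

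Per kilobase of gene model, the scale on which genes can be compared, Cyr61 had the highest level of the 10 in every group. It averaged 643 ± 17.4 CPM per kilobase in TM4 with MEHP and 932 ± 24.8 in TM4 with DMSO (SD, n = 3 each), and 162 ± 7.24 in TM3 with MEHP and 141 ± 7.80 in TM3 with DMSO. Ctgf was second in TM4, with 86.9 ± 13.8 CPM per kilobase with MEHP and 143 ± 8.94 with DMSO, and ranked 9 in TM3 with MEHP, at 6.42 ± 0.755, and 8 in TM3 with DMSO, at 5.69 ± 1.79. In TM4 with MEHP its next neighbours, Amotl2 at 76.7 ± 3.51 and Axl at 73.3 ± 2.76, lay within 1 SD of Ctgf and were not distinguishable from it by their spread. Ankrd1 ranked 5 of 10 in TM4, with 49.9 ± 2.76 CPM per kilobase with MEHP and 65.8 ± 1.95 with DMSO, and the lowest in TM3, with 2.02 ± 0.246 with MEHP and 2.04 ± 0.229 with DMSO. Foxf2 was the lowest in TM4, at 9.41 ± 0.905 with MEHP and 9.84 ± 0.783 with DMSO. With MEHP its neighbour Lats2, at 9.84 ± 0.609, lay within 1 SD of it. In TM3, Lats2 at 6.75 ± 0.214 with MEHP and 6.65 ± 0.118 with DMSO lay within 1 SD of Ctgf, so that the ranks of that pair were not distinguishable either, and with DMSO the same held for Foxf2 at 5.02 ± 0.242.

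**Figure D3:**
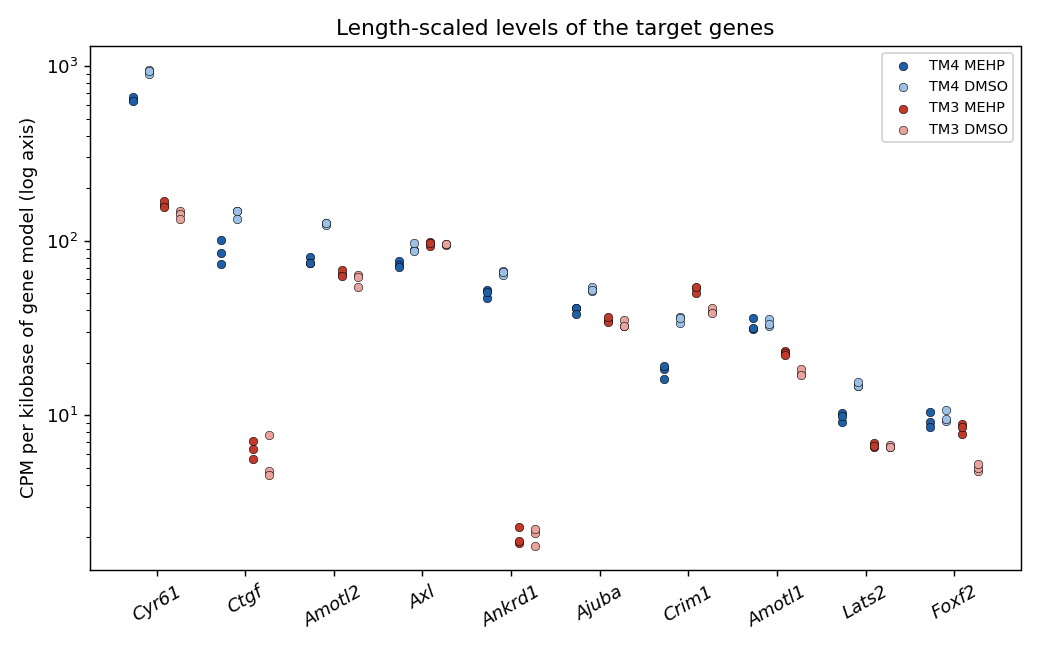
CPM per kilobase of gene model (log axis) of the 10 target genes, in order of their level in TM4 with DMSO. Each point is 1 library, and from left to right the colours are TM4 with MEHP, TM4 with DMSO, TM3 with MEHP and TM3 with DMSO. Ankrd1 and Ctgf show the widest gaps between the lines, and Axl and Crim1 the narrowest under DMSO.

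For Ctgf, Cyr61 and Crim1, the genes with the most similar pattern over the 4 group means were looked up among 10639 genes that reached 5 CPM in some group. Likeness is the root mean square difference of log2(CPM + 0.5) after centring, over 4 groups, and says nothing on shared function. For Cyr61 these were Dstn at 0.041, Gnrh1 at 0.044 and Gramd3 at 0.051. For Ctgf they were Mef2c at 0.074, Lipg at 0.083 and Trps1 at 0.084. Mef2c averaged 6.80 CPM in TM4 with MEHP and 11.4 CPM in TM4 with DMSO and had no count in TM3, so its likeness is set by the offset of 0.5 CPM. Gnrh1 averaged 0.94 CPM in TM3 with MEHP and 0.788 CPM in TM3 with DMSO, so the offset affects its likeness too. For Crim1 they were Farp2 at 0.087, Loxl2 at 0.138 and Dab2 at 0.149. Dstn encodes the actin-severing protein destrin, and averaged 339 CPM in TM4 with MEHP and 484 CPM in TM4 with DMSO, and 79.9 CPM in TM3 with MEHP and 75.2 CPM in TM3 with DMSO. Farp2 averaged 11.4 CPM in TM4 with MEHP and 19.0 CPM in TM4 with DMSO, and 30.4 CPM in TM3 with MEHP and 22.3 CPM in TM3 with DMSO.

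A further list of 14 reported YAP and TEAD targets, 12 of them tested, was set beside the 10. In TM4, 3 were lower and 1 was higher with MEHP, that is 4 of 12 where 30.9% of all genes passed. Their median log2 fold change was -0.10 (-0.115 without Igfbp3, which has no count in TM4). Of the 4, Ccdc80, a matrix protein gene, fell by 0.56 ± 0.05, and Gadd45a, a stress response gene, rose by 0.40 ± 0.07 (edgeR adjusted p = 1.21e-09 and 4.11e-05). Ptpn14 at -0.24 ± 0.08 and Nuak2 at -0.35 ± 0.13 also passed, with libraries that overlapped. In TM3, 1 was higher and 1 lower, where 16.5% of all genes passed, with a median of 0.04. These were Ptpn14, a phosphatase that binds YAP, at 0.25 ± 0.08 (edgeR adjusted p = 0.0283) and Ccdc80 at -0.24 ± 0.05 (0.000764). Ptpn14 in TM3 did not pass in 5 of the 6 fits that left out 1 of its libraries (all but TM3 DMSO replicate 2; adjusted p = 0.0662 to 0.119, edgeR), and in TM4 not without replicate 1 or 2 of TM4 DMSO, or replicate 3 of TM4 MEHP, (0.0648 to 0.128). Between the lines under DMSO the further targets had 2 higher and 10 lower in TM4 and a median of -1.03. There 82.0% of all genes passed, 40.0% higher and 42.0% lower in TM4. Igfbp3, a binding protein for insulin-like growth factors, had no count in TM4 with DMSO and 24.8 CPM in TM3 with DMSO, at least 136-fold lower, taking 3 counts per library as the limit. Tgfb2 was at -3.88 ± 0.06 and Gadd45a at 4.97 ± 0.09.

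Of 28 genes of the Hippo pathway and the TEAD factors, 26 were tested. The list holds genes that act with YAP and genes that restrain it, so a count by direction has no single meaning. In TM4, 13 were lower and 1 was higher with MEHP, where 15.0% of all genes were lower and 15.9% higher, with a median log2 fold change of -0.20. The lower genes included the upstream pathway genes Stk4, Sav1, Mob1b, Wwc2, Frmd6, Taok1 and Taok2 (named after their values were seen). Stk3, Lats1, Mob1a, Nf2, Wwc1, Map4k4, Taok3, Fat4, Dchs1 and Rassf1 did not pass. Of these, Fat4 and Dchs1 averaged 0.244 and 0.593 CPM in TM4 with DMSO, too few counts to judge a change. Lats1 at -0.14 ± 0.05 and Taok3 at -0.15 ± 0.07 were lower without overlap (edgeR adjusted p = 0.0521 and 0.0845). Yap1 had 198 to 215 CPM in TM4 with MEHP, against 248 to 264 CPM in TM4 with DMSO, and fell by 0.30 ± 0.05 (edgeR adjusted p = 2.91e-05). Tead1 fell by 0.55 ± 0.06 and Tead4 by 0.60 ± 0.09 (edgeR adjusted p = 4.94e-08 and 8.33e-06). Vgll4, which competes with YAP for TEAD, fell by 0.81 ± 0.07, and the atypical cadherin gene Fat1 by 0.90 ± 0.18 (edgeR adjusted p = 9.72e-11 and 0.00644). Wwtr1, the gene of TAZ, at 0.02 ± 0.05 and Tead2 at 0.09 ± 0.06 did not pass, and Tead2 passed without TM4 MEHP replicate 1 (edgeR adjusted p = 0.0321, within 0.0321 to 0.699). Tead3 was the 1 higher gene, at 0.24 ± 0.08 (edgeR adjusted p = 0.0297), and did not pass in 6 alternatives, among them those without TM4 DMSO replicate 1 or TM4 MEHP replicate 2 (0.0535 to 0.189, within 0.0192 to 0.189).

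In TM3, 6 of the 26 were higher with MEHP and 1 was lower, where 9.04% of all genes were higher and 7.43% lower, with a median log2 fold change of 0.09. Tead1 rose by 0.28 ± 0.06, Wwc1 (KIBRA, an upstream Hippo scaffold) by 0.27 ± 0.06 and Wwtr1 by 0.20 ± 0.05 (edgeR adjusted p = 0.00117, 0.00125 and 0.00395). Tead4 averaged 7.31 CPM in TM3 with MEHP and 5.23 CPM in TM3 with DMSO and rose by 0.48 ± 0.13 (edgeR adjusted p = 0.00813), but did not pass without TM3 DMSO replicate 1 (0.0627, within 0.0062 to 0.0627). Vgll4 fell in this line also, by 0.40 ± 0.07 (edgeR adjusted p = 5.11e-05). Yap1, at 0.09 ± 0.05, did not pass (edgeR adjusted p = 0.272). The difference of the responses passed below 0 in 13 of the 26, where 13.3% of all genes did, and above 0 in 0 (0 also at an unadjusted p under 0.05 and by DESeq2 and limma-voom). The genes below 0 included Fat1 at -1.23 ± 0.26, Tead4 at -1.08 ± 0.16, Tead1 at -0.83 ± 0.09, Vgll3 at -0.65 ± 0.09 and Yap1 at -0.38 ± 0.07. For Wwtr1 the difference, -0.18 ± 0.07, did not pass (edgeR adjusted p = 0.0509). It passed in 7 alternatives, among them DESeq2 (adjusted p = 0.0132) and limma-voom (0.0382), within 0.0132 to 0.156 over all alternatives. Under DMSO, 15 of the 26 were higher and 5 lower in TM4 than in TM3. There 40.0% of all genes were higher and 42.0% lower. The largest change was that of Fat4, at -6.97 ± 0.22, with 0.244 CPM in TM4 with DMSO and 31.4 CPM in TM3 with DMSO. Tead3 was at -3.04 ± 0.07, Tead4 at 2.47 ± 0.11, Rassf1 at 2.06 ± 0.09 and Yap1 at 0.53 ± 0.05.

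Relatives and partners of the 10 genes were looked at next. Of 14, 11 were tested, 2 were higher and 3 lower in TM4 with MEHP, and 1 was higher and 1 lower in TM3 with MEHP. Thus 5 of 11 passed in TM4 and 2 of 11 in TM3, where 30.9% and 16.5% of all genes did. Gas6, the ligand of AXL, averaged 1.76 CPM in TM4 with MEHP and 2.89 CPM in TM4 with DMSO, and 1294 CPM in TM3 with MEHP and 1439 CPM in TM3 with DMSO. For TM4 against TM3 under DMSO, Gas6 was at -8.95 ± 0.08 on the log2 scale, while the receptor gene Axl, with 457 CPM in TM4 with DMSO and 481 CPM in TM3 with DMSO, did not pass. Gas6 fell by 0.72 ± 0.16 in TM4 (edgeR adjusted p = 0.00114) and by 0.15 ± 0.05 in TM3 (0.0301), where it did not pass in 5 of the 6 fits that left out 1 of its libraries (all but TM3 DMSO replicate 2; 0.073 to 0.157). Amot, the founding angiomotin, fell by 0.46 ± 0.07 and the Axl relative Mertk by 0.41 ± 0.11 in TM4 (edgeR adjusted p = 4.63e-06 and 0.00547). Foxf1, the nearest relative of Foxf2, rose by 1.36 ± 0.30 in TM4, from few counts, at 1.84 CPM with MEHP and 0.702 CPM with DMSO (edgeR adjusted p = 0.000839). Wisp1, a CCN gene like Ctgf and Cyr61, was the other higher gene in TM4, at 0.25 ± 0.06 (edgeR adjusted p = 0.00242, named after its value was seen). Under DMSO, 2 of the 11 were higher and 9 lower in TM4 than in TM3. There 40.0% of all genes were higher and 42.0% lower. Wisp1 was at -3.57 ± 0.06, in the opposite direction to Ctgf and Cyr61, and Foxf1 at -4.47 ± 0.21. The AXL family ligand Pros1 rose by 0.55 ± 0.14 in TM3 (edgeR adjusted p = 0.00499).

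SRF and its MRTF coactivators, which also answer to actin and share several target genes with YAP, were looked at beside the 10, in a list of 15 of their targets and the 3 factor genes Srf, Mkl1 and Mkl2. All 18 were tested. In TM4 with MEHP, 12 of the 15 targets were lower and 2 higher, where 15.0% of all genes were lower and 15.9% higher, with a median log2 fold change of -0.55 for the targets. In TM3 with MEHP, 3 targets were higher and 1 lower, where 9.04% of all genes were higher and 7.43% lower, with a median of 0.14. Some had few counts in TM3, where Tagln, Actg2, Myl9 and Fhl2 averaged 0.247, 0.773, 1.14 and 2.54 CPM with DMSO. Under DMSO, 12 of the 15 targets were higher and 2 lower in TM4 than in TM3. There 40.0% of all genes were higher and 42.0% lower. The largest values were those of Myl9 at 6.73 ± 0.15 and Actg2 at 5.49 ± 0.18. Of the factor genes, Srf fell by 0.25 ± 0.05 and Mkl1 by 0.23 ± 0.07 in TM4 (edgeR adjusted p = 0.000822 and 0.00995), and Mkl2 at 0.08 ± 0.09 did not pass (0.526). In TM3 their edgeR adjusted p were 0.589, 0.123 and 0.747. Acta2, smooth muscle actin, had 200 to 230 CPM in TM4 with MEHP, against 474 to 517 CPM in TM4 with DMSO, and fell by 1.22 ± 0.06 (edgeR adjusted p = 2.08e-16). It rose by 0.35 ± 0.07 in TM3 (edgeR adjusted p = 0.000542), and the responses differed by -1.57 ± 0.09. The myosin and filamin genes Myl9 and Flna fell by 0.90 ± 0.08 and 0.66 ± 0.06 in TM4 (edgeR adjusted p = 9.45e-09 and 8.3e-10). Myh9 and Actn1 rose by 0.25 ± 0.05 and 0.29 ± 0.05 in TM3 (edgeR adjusted p = 0.00114 and 0.000167). The higher genes in TM4, Tpm2 at 0.32 ± 0.07 and Filip1l at 0.40 ± 0.11, were named after their values were seen (edgeR adjusted p = 0.00061 and 0.00837). The libraries of Filip1l overlapped, and those of Tpm2 did not.

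Of 5 markers of myoid and smooth muscle cells, 4 were tested. Acta2 and Cnn1 were lower in TM4 with MEHP, and Acta2 was higher in TM3 with MEHP. Des and Tagln did not pass in TM4, at 0.23 ± 0.24 and 0.22 ± 0.42 on the log2 scale (edgeR adjusted p = 0.496 and 0.743). The summed level of the 5 (Acta2, Myh11, Cnn1, Des and Tagln) was 209 to 241 CPM in TM4 with MEHP, against 486 to 529 CPM in TM4 with DMSO. It was 48.8 to 50.3 CPM in TM3 with MEHP, against 34.4 to 42.9 CPM in TM3 with DMSO. Most of this sum is Acta2, while Myh11 averaged 0.363 CPM in TM4 with MEHP and 0.394 CPM in TM4 with DMSO. Their part in the result was not tested.

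**Figure D4:**
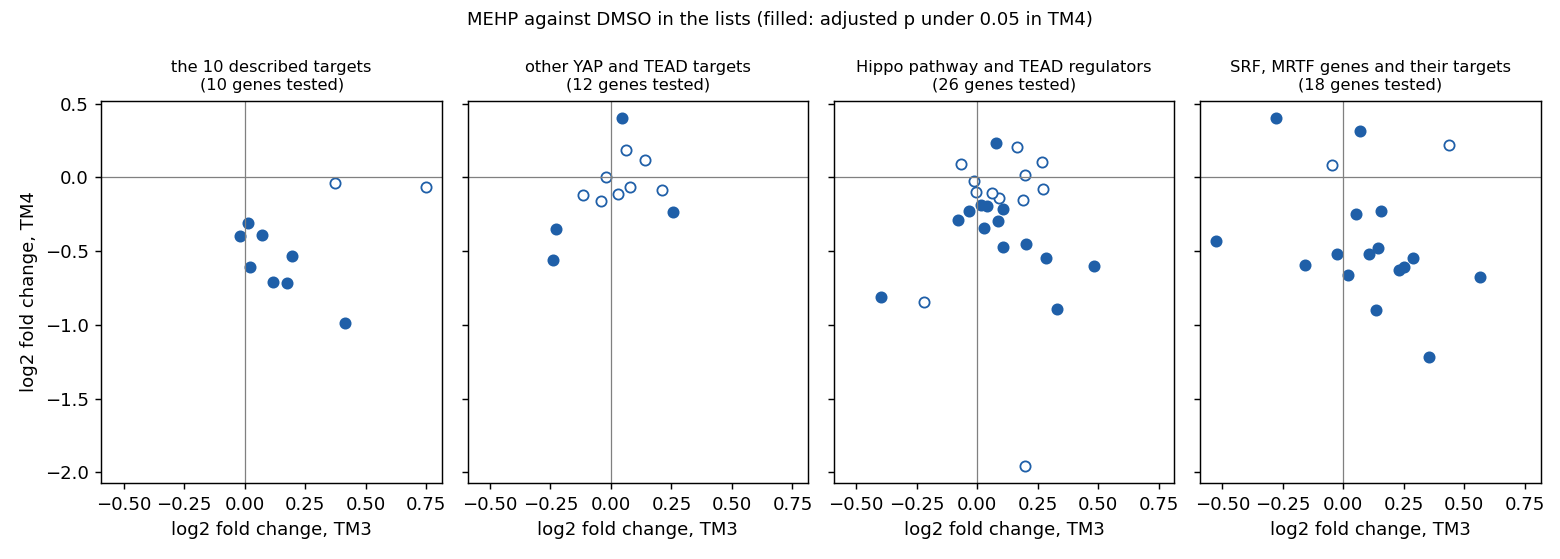
Each point is a tested gene, with its log2 fold change of MEHP against DMSO in TM3 (horizontal) and TM4 (vertical), in 4 lists, and filled where the adjusted p in TM4 was under 0.05. All 10 described targets lie below 0 on the vertical axis, 8 of them filled, while 4 of the 12 further targets are filled.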

How the data were processed

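The authors deposited a table of raw, whole-number counts with each gene's coordinates and the length of its model in bases. edgeR, DESeq2 1.20.0, featureCounts 1.5.0-p3, StringTie 1.3.3b, HISAT2 2.0.5 and the mm10 build are named per the submitters' processing notes. Their roles, the annotation release, the strand setting and the counting options were not given in the sources used here. Reads of overlapping and antisense genes may therefore be shared. Genes on the opposite strand of Ctgf and Lats2 had 25 and 146 counts in all libraries, against 35033 and 13362 for Ctgf and Lats2. The lines are called rat in some labels, but the organism field and gene identifiers are of mouse.

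Groups came from the sample titles. With edgeR 4.0.16 (R 4.3.3), genes were filtered with filterByExpr, scaled by TMM and tested by the quasi-likelihood F-test (robust), all 12 libraries fitted together by group, which left 8 residual degrees of freedom. A standard error is the size of the log2 fold change divided by the root of F. CPM use TMM-scaled totals. Alternatives used upper-quartile or RLE factors, no filter, at least 5 CPM in 3 libraries, DESeq2 1.42.0, limma-voom (3.58.1), a replicate block, the 6 libraries compared, and each of 12 libraries left out. The procedure was tested on simulated data. Replicate pairs differed by more than counting noise (chi-square per degree of freedom 2.33 to 10.3).

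The 10 genes and the lists were chosen with earlier results of these data known. All 10 are given. From each other list, up to 4 genes per contrast were selected, and not all of them are given. They were those past the test without overlap and with the largest change (overlap was allowed for the difference of responses). Yap1, Wwtr1 and Tead1 to Tead4 were also looked up. Genes named outside this rule were named after their values were seen. Promoter sequences are from RefSeq, GRCm38.p6.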

Additional observations from a re-analysis of the deposited data

Results flagged for a closer look

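The response to MEHP differed between TM4 and TM3, by the test of the difference itself, in 8 of the 10 target genes. Over all genes 26.3% passed in this comparison, 13.0% higher and 13.3% lower. TM4 minus TM3, on the log2 scale, it was -1.40 for Crim1, -0.83 for Amotl2, -0.81 for Foxf2, -0.73 for Cyr61, -0.63 for Lats2, -0.46 for Ajuba, -0.41 for Amotl1 and -0.32 for Axl. For Crim1 and Cyr61 the responses had opposite signs and each passed. For Foxf2 and Amotl1 the response passed in TM3, and for Amotl2, Lats2, Ajuba and Axl in TM4.

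Among the further targets the difference was -0.49 for Ptpn14, -0.32 for Ccdc80 and 0.36 for Gadd45a. Among the pathway genes it was -1.23 for Fat1, -1.08 for Tead4, -0.83 for Tead1, -0.65 for Vgll3 and -0.38 for Yap1. Among relatives and partners it was 1.2 for Foxf1, -0.80 for Pros1, -0.57 for Gas6 and -0.32 for Amot. Among the SRF and MRTF targets it was -1.57 for Acta2, -1.24 for Actg2, -1.04 for Myl9 and -0.86 for Myh9. Actg2 and Myl9 averaged 0.773 and 1.14 CPM in TM3 with DMSO, so their differences rest on few counts in that line. The differences for Gadd45a, Gas6, Foxf1 and Myl9 did not pass under some alternatives, with adjusted p from 0.0551 to 0.107 in 8 settings for Gadd45a, 0.0675 to 0.103 in 3 for Gas6, 0.0521 in 1 for Foxf1 and 0.0594 to 0.0951 in 5 for Myl9 (edgeR or limma-voom).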

How the results depend on the processing

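No value of the 10 genes that passed changed direction under any alternative. With 1 library left out, 8 of the 10 genes passed in TM4 in every fit, 3 to 4 in TM3, 8 to 9 for the difference of the responses and 8 to 10 between the lines. In those fits, of 16128 to 16203 genes tested, 3745 to 4900 passed in TM4 and 1742 to 2949 in TM3. For the difference 3458 to 4388 passed, and between the lines 12757 to 13261. Counts of the further targets were less stable. In TM3, 4 passed with only the 6 libraries compared and 1 to 3 with 1 library left out, against 2 in the fit reported. In TM4, 2 to 5 passed with 1 library left out, the 2 without TM4 DMSO replicate 2, against 4. For the difference, 2 to 7 passed, the 7 without TM4 MEHP replicate 1, against 3. The difference for Ctgf also passed with RLE factors, the stricter filter, DESeq2 and limma-voom (adjusted p = 0.0493, 0.0367, 0.0154 and 0.0434). The causes were not tested. Replicate numbers were not taken to pair the libraries, since not every pair passed 0.1: same-numbered libraries of different groups correlated at -0.116 to 0.168 in their deviations from the group means (0.05 to 0.168 between TM4 with MEHP and TM4 with DMSO), and, as a hint from the data, 6 of 6 libraries in TM4 and 4 of 6 in TM3 correlated best with their own number. With the replicate block, 4 of the 10 genes passed in TM3, 8 in TM4, 8 for the difference and 9 between the lines, and over all genes 2827 passed in TM3 and 5029 in TM4, against 2585 and 4856. Responses of Lats2 and Axl in TM3 that lie inside the intervals given could not be detected with 3 libraries a group.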
